A study of Mus musculus with 12 samples.

Results

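EO771-tdT-LM2 is a mouse breast cancer cell line, and the 3 cultures described here are the controls of a series of 12 cultures that tested GDNF, a growth factor, and an antibody to NCAM1, a cell adhesion molecule. They are the cultures labelled with 0.1% BSA together with IgG at 2.5 ug/mL, a carrier protein and an immunoglobulin in place of GDNF and the antibody. The other 9 cultures received GDNF, the antibody or both. All cultures carried the genotype label WT. Before seeding, the cells spent 30 minutes in medium with 10 mg/dl glucose and 1% FBS, and the treatment then ran for 24 hours in glucose-deprived medium. Every level below is therefore one of cells short of glucose, and no culture in full medium stood beside them. The labels call the cultures triplicates without saying that they came from separate experiments, so each SD covers the spread between these 3 cultures, which may be technical. RNA was taken from whole cultures, so that fewer cells expressing a gene and less RNA per cell cannot be told apart.

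A mammary gland is lined by luminal epithelial cells, which carry keratins 8 and 18 and hormone receptors, and by basal cells, which carry keratins 5 and 14. Breast cancer cells can lose the epithelial junction protein E-cadherin and take up vimentin and matrix genes, a shift known as the epithelial-mesenchymal transition and set by transcription factors of the ZEB, SNAI and TWIST families. Cells short of glucose depend on glucose transporters, on amino acid uptake and on the integrated stress response, in which the factor ATF4 raises genes of amino acid supply.

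The deposited counts came to 6229996, 7811571 and 8093754 in the 3 cultures, so that 3 counts stand for 0.371 to 0.482 CPM (counts scaled to a total of 1000000 per culture). Levels of different genes are given per transcript length, as TPM: counts divided by the length of the gene's longest transcript and scaled to the same total. Where the principal transcript, the main isoform of the annotation, moves a named level by over 1.5 times, that value is added. The median length of a gene's transcripts can move a level as much, and that value is given for a few genes only. Values written with ± are the mean and SD over the 3 cultures (n = 3 throughout), and 3 values in a row are the 3 cultures in order. A gene was taken as expressed when it reached 1 CPM in each of the 3 cultures. By this rule 11013 of 55414 gene IDs were expressed, of which 10342 were protein-coding, and 36459 had no count in any of the 3. The expressed share of all 21927 protein-coding genes was 47.2%, and this is the background for every gene list below. Over the 10995 expressed genes with a known length the median level was 30.7 TPM, and the middle 50% of them lay between 12.4 and 67.4 TPM. In all, 1681 genes reached 100 TPM and 114 reached 1000 TPM.

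A low count was read with the gene's sequence in mind, since reads that match several genes may not have been counted. Of protein-coding genes with under 5% of their 31-base words found in no other gene, 24 of 811 were expressed (2.96%), against 8095 of 15559 (52.0%) of genes with 90% or more. How much of this contrast comes from uncounted reads and how much from genes silent in these cells was not tested. The ribosomal protein gene Rpl24, needed by every cell, stood at 0.587 CPM with 17.8% of its words unique. Families that every cell uses and that have mostly unique sequence were found nearly whole: 27 of 27 RNA polymerase subunits, 77 of 78 mitochondrial ribosomal proteins and 37 of 37 aminoacyl-tRNA synthetases were expressed. The share of unique words is therefore given for genes named below 10 TPM where it is under 75%, and for some others. Some of the highest genes share sequence too, such as mt-Co1 (36.1% of words unique), Eef1a1 (25.2%) and Rps2 (22.8%). How this moved their levels and ranks was not tested. With no count in any culture, 3 counts of the pooled total of 22135321 bound the level at 0.136 CPM, a one-sided limit that covers counting error only. The exact 95% Poisson intervals given for counts above 0 are two-sided, and for a gene with 0 counts, such as the keratin gene Krt19, such an interval reaches 0.167 CPM.

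Genes of protein synthesis and folding led the transcriptome. Of the 30 genes with a symbol that stood highest per length, 12 encode ribosomal proteins, 6 are encoded by the mitochondrial genome, 3 are transcripts under 200 bases, and 9 are others. The first place was held by mt-Co1, a catalytic subunit of cytochrome c oxidase, at 46867, 45312 and 46785 TPM. The second was Eef1a1, which brings aminoacyl-tRNA to the ribosome, at 16812, 16597 and 16873 TPM. Vim, the intermediate filament protein vimentin, followed at place 12 with 5180.0, 5083 and 5204 TPM. The others of the 9 were the nucleolar protein gene Npm1 (4947 ± 196 TPM), the chaperones Hsp90ab1 (4871 ± 64.8 TPM) and Hspa8 (4559 ± 109.5 TPM), Actb (4322 ± 127 TPM), the ferritin heavy chain Fth1 (3344 ± 104 TPM), the elongation factor Eef2 (3257 ± 37.7 TPM), Eef1a1 and Lars2, a mitochondrial leucyl-tRNA synthetase. The level of Lars2 differed between cultures, at 5909, 5770.1 and 2653 TPM. The short Mir6236 stood at 12569, 14236 and 6421 TPM. The most abundant feature of the table, which has no symbol in the annotation, took 9.36%, 8.93% and 4.80% of counts. The third culture was the low one for all 3, and the part of that feature in the Lars2 and Mir6236 counts was not tested. Bc1, a noncoding RNA known from neurons, of 168 bases, and a predicted gene of 78 bases complete the short transcripts, whose level per length rests on few possible read positions. The gene of 78 bases has 0.0% of its words unique, so its count is uncertain.

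The 79 ribosomal protein genes together took 6.16 ± 0.287% of counts. All but 1 of them were expressed, Rpl24 being the exception described above. In the large subunit the highest were Rpl10 (6977 ± 307 TPM), Rplp0 (5532 ± 106 TPM) and Rpl8 (4248 ± 33.1 TPM), and in the small subunit Rps2 (5686 ± 11.2 TPM), Rps4x (3751 ± 110.3 TPM) and Rps27a (3692 ± 158 TPM). The median member reached 1621 TPM in the large and 1708 TPM in the small subunit. Of 5 paralogs listed as restricted to some tissues, 3 had no count: Rpl3l, Rpl10l and Rpl39l, known from muscle or testis. The other 2 were expressed, at a median of 89.1 TPM, and the higher of them was Rpl7l1, at a mean of 91.1 CPM. Translation factors held a further 2.96 ± 0.106% of counts, led after the elongation factors by Pabpc1, the poly(A)-binding protein, at 3048 ± 16.4 TPM. Among cytosolic chaperones 23 of 25 were expressed, and the other 2 have under 50% of their words unique, so they are not read as absent. The 8 subunits of the TRiC ring, which folds actin and tubulin, ran from 213 ± 6.89 TPM for Cct7 to 1166 ± 35.5 TPM for Cct5, and the heat-inducible Hspa1b was far lower, at 37.5 ± 1.46 TPM.

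Mitochondrially encoded genes took 4.18%, 4.11% and 4.38% of counts. mt-Nd2 (10692 ± 161 TPM), mt-Nd1 (8979 ± 232 TPM), mt-Nd5 (5919.9 ± 152 TPM) and mt-Nd4 (4427 ± 97.4 TPM), all subunits of complex I, and mt-Cytb (5908 ± 52.5 TPM), of complex III, made up most of the rest after mt-Co1. mt-Co2, mt-Co3 and mt-Atp6 had only 70, 63 and 29 counts over the 3 cultures. Under 1% of the 31-base words of these 3 genes were found in no other gene, so their counts say nothing of their level. The mitochondrially encoded share given above may therefore be too low, by an amount that was not tested. For complex IV subunits encoded in the nucleus the body-wide isoform was the one present in each pair. Cox4i1 reached 851 ± 23.1 TPM against 0 counts for the lung isoform Cox4i2, Cox6a1 reached 352 ± 19.8 TPM against 3.49 ± 0.663 TPM for the muscle isoform Cox6a2, and Cox8a reached 266 ± 17.8 TPM against 0 counts for Cox8b.

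Epithelial identity was carried by few genes. Of 20 luminal and hormone receptor markers 4 were expressed, Krt8, Epcam, Erbb2 and Erbb3, a share of 20% against the background of 47.2%. Krt8, keratin 8, was high at 754, 737 and 780.0 TPM, rank 142 of the 10995 expressed genes. With the median transcript length Krt8 would be 311 TPM, and 64.0% of its words were unique. Its usual filament partner Krt18, keratin 18, had 1 count in the 3 cultures together, although 88.6% of its words were unique. The exact Poisson interval of that count reaches up to 0.252 CPM (95%), against 524 ± 30.2 CPM for Krt8. Krt19 and Krt7, the other luminal keratins, had no count. In all, 3 of 17 keratins were expressed, and the other 2, Krt14 (3.91 ± 0.868 TPM, 70.9% of words unique), a basal keratin, and Krt80 (1.79 ± 0.578 TPM), were near the lower end of the expressed genes. Epcam, an epithelial adhesion molecule, stood at 19.9, 18.9 and 18.2 TPM, below the median expressed gene.

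Krt8 and Krt18 are neighbours on the chromosome with no gene between them in RefSeq, so the 250 bases before each start are shown to set the letters of an abundant gene beside those of a gene with 1 count. With them stand Ldha and Ldhb, the lactate dehydrogenase subunits with the same contrast described below, and Wap, a milk protein gene with no count. CG dinucleotides, which are where DNA methylation falls in mammals, are in capitals. All are RefSeq sequences of GRCm38.p6, read 5′ to 3′ toward the gene.
Krt8, chr15:102004343-102004592, minus strand: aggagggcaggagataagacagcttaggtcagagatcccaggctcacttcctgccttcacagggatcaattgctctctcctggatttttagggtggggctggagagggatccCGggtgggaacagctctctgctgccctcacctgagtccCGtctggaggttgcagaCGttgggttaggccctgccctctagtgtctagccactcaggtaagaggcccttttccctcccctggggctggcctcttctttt
Krt18, chr15:102027966-102028215, plus strand: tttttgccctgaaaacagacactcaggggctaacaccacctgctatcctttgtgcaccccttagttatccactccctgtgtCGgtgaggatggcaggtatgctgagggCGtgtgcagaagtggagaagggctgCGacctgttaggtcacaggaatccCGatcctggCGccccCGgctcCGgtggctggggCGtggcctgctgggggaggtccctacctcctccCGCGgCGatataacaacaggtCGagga
Ldha, chr7:46845554-46845803, plus strand: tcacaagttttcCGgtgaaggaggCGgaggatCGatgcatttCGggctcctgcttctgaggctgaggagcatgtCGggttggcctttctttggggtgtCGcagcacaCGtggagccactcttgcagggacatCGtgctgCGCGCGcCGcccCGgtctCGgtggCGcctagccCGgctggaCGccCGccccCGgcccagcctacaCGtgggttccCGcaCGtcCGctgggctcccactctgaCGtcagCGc
Ldhb, chr6:142507958-142508207, minus strand: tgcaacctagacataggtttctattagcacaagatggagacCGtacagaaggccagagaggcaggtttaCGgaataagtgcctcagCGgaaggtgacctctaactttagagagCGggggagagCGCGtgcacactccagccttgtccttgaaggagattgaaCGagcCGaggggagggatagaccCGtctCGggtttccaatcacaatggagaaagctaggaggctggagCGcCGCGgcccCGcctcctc
Wap, chr11:6638650-6638899, minus strand: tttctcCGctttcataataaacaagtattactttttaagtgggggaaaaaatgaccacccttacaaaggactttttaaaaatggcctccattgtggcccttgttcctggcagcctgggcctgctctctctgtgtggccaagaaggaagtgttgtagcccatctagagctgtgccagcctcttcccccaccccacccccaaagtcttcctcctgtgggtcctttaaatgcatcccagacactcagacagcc

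The abundant Krt8 had 3 CG dinucleotides in this window and the almost uncounted Krt18 had 12, while Ldha had 25, Ldhb 14 and Wap 1. The window before a second RefSeq start of Ldha had 9 CG, fewer than that of Ldhb, so the order of these 2 genes depends on the start taken. Over 16499 protein-coding genes with a RefSeq window of 250 bases, the first listed for each symbol, the median was 10 CG. Genes of chromosome 18 were left out of this set. It was 17 for the 8278 expressed genes, with a middle 50% of 11 to 23, and 3 for the 6207 genes with no count, with a middle 50% of 1 to 8. For the 2014 genes between, counted but not expressed, it was 7, with a middle 50% of 3 to 15. Krt18 and Ldhb, with 1 count each, belong to this last class and lay within its middle range, though above that of genes with no count. Krt8 lay below the middle range of expressed genes. Within the expressed genes the median rose with the level only at the lower end: it was 12 in the 10% of genes with the lowest level, 15 in the next 10% and 17 or 18 above the lowest 30%. The letters TATAAA, searched on both strands, stood in 5.68% of expressed, 20.8% of uncounted and 11.9% of all windows, and in none of the 5 shown. CCAAT was found on either strand in 37.4% of expressed and 35.2% of uncounted windows, and in 36.0% of all of them. GGGCGG was found on either strand in 62.6% of expressed and 21.7% of uncounted windows, against 44.3% of all, and overlaps with the CG count because it holds a CG itself. These shares describe letters in a window and no binding.

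**Figure D1:**
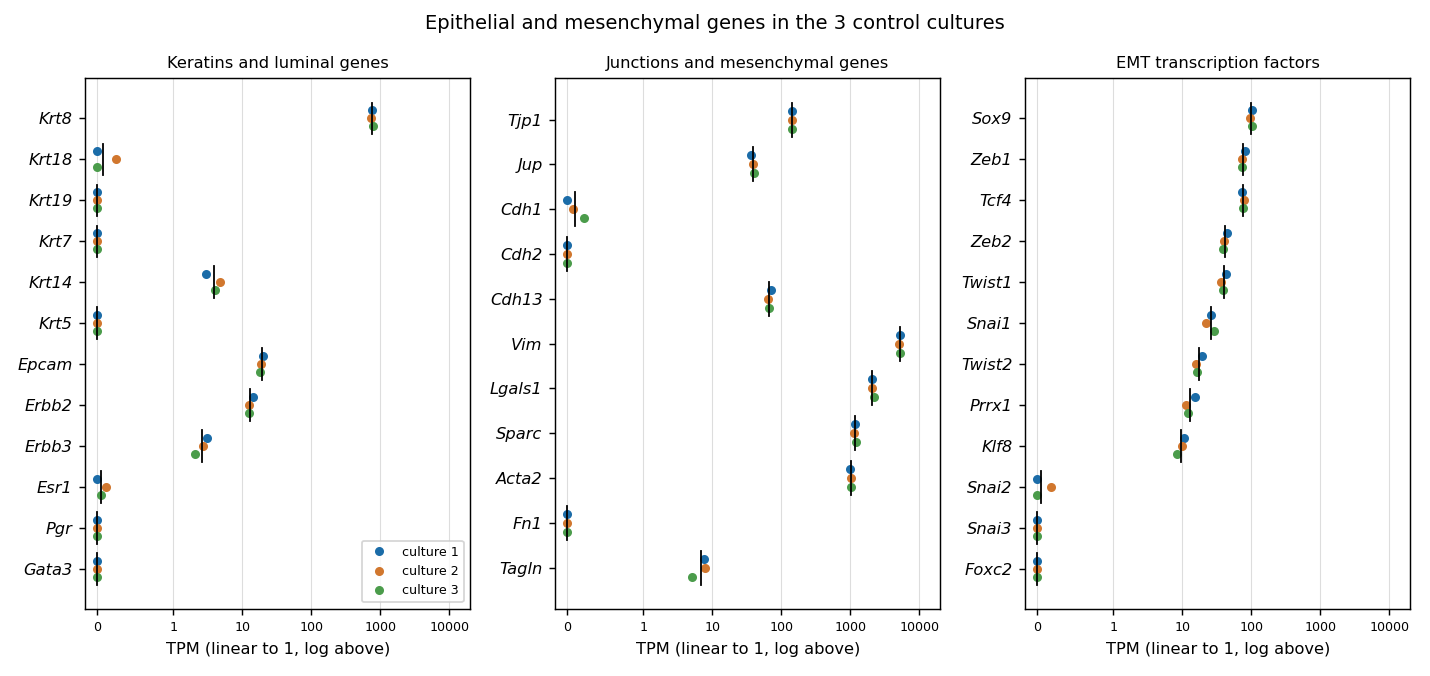
Levels of 35 epithelial and mesenchymal genes in the 3 control cultures, in TPM on an axis that is linear to 1 and logarithmic above. Points are cultures and the vertical bar is their mean. Krt8 stood near 757 TPM and Vim near 5156 TPM in all 3 cultures, while Krt19, Pgr, Cdh2 and Fn1 were at 0 in each.

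Hormone receptors were at or near 0. Esr1, the estrogen receptor, had 3 counts in all, at an exact 95% Poisson upper limit of 0.396 CPM, and Pgr, Prlr and the luminal regulator Gata3 had none. Erbb2, the receptor HER2, was expressed at 14.2, 12.4 and 12.6 TPM, which is below the median expressed gene and below 429 ± 8.44 TPM for Axl, the highest receptor tyrosine kinase. The 3 genes on which breast tumours are typed as triple-negative thus stood at 3 counts, 0 counts and a low level. None of 9 milk protein genes was expressed. Csn2 and Wap had no count, and Lcn2, an iron-siderophore carrier made in milk and inflammation, had the most at 23 counts.

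Basal markers were mixed. Acta2, smooth muscle actin, which myoepithelial cells and myofibroblasts share, was high at 990.3, 1033 and 1033 TPM, and Sox9, a progenitor transcription factor, reached 102, 95.6 and 102 TPM. The defining basal genes Krt5 and Trp63 had no count, with 84.2% and 100% of their words unique. Myh11 and Cnn1, the contractile genes of mature smooth muscle and myoepithelium, had 7 and 2 counts, and Mylk, the kinase that drives their myosin, stood at 34.7 ± 1.20 TPM.

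Epithelial junction genes were mostly unexpressed, 7 of 23 passing the threshold. The scaffold Tjp1 (ZO-1) stood at 144, 144 and 143 TPM, or 595 TPM with the median transcript length. Jup, plakoglobin, stood at 35.9, 38.8 and 40.4 TPM. Of transmembrane members, Cdh1, E-cadherin, had 4 counts, Cldn3, Cldn4 and Cldn7 had none, and Ocln, occludin, stood at 2.15 ± 0.511 TPM, while Epcam was expressed as given above. The plaque and scaffold genes Dsp, Pkp1 and Tjp3 had 15, 9 and 2 counts and were not expressed, and Pkp3 was low at 3.99 ± 0.884 TPM. Cdh2, N-cadherin, had no count either. Of the 13 cadherins listed only Cdh13, which is held by a lipid anchor and lacks the cytoplasmic tail, was expressed, at 70.7, 63.9 and 66.4 TPM. Esrp1 and Esrp2, the splicing regulators of epithelial exons, had 0 and 5 counts.

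Mesenchymal genes were prominent but incomplete. Of 20 such genes 13 were expressed. After Vim the highest were Lgals1, galectin 1, at 2046, 2027 and 2172 TPM, the matrix glycoprotein gene Sparc at 1174, 1147 and 1187 TPM, and Acta2. All of these exceeded 234 TPM, the 95th percentile of expressed genes. Fn1, fibronectin, a gene often followed in this transition, had no count with 97.4% of its words unique. Thy1, Postn and Fap, which mark fibroblasts, had no count either, and Tagln, transgelin, stood at 6.83 ± 1.52 TPM with 46.2% of its words unique.

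Among 13 transcription factors of the transition 9 were expressed. After Sox9 came Zeb1, which represses E-cadherin, at 80.2, 72.7 and 72.9 TPM, and Tcf4 at 72.6, 77.3 and 74.4 TPM. Zeb2 stood at 43.8, 40.1 and 39.2 TPM and Twist1 at 43.5, 35.8 and 39.0 TPM. On the longest transcript Zeb1 and Tcf4 overlapped with each other, as did Zeb2 and Twist1, and the first pair was above the second in each culture. With the median transcript length Zeb1 would be 133 TPM, Zeb2 87.4 TPM, Sox9 41.2 TPM and Twist1 16.2 TPM. The order of these factors is therefore not firm. Snai1 stood at 25.6, 21.9 and 29.2 TPM, while its relative Snai2 had 1 count. Sox4 had no count but only 45.3% of its words are unique, so that gene is not read as absent. Among surface markers used to sort progenitors, Itga6 (CD49f, 362 ± 7.82 TPM), Itgb1 (CD29, 327 ± 11.7 TPM) and Cd44 (326 ± 10.4 TPM) were high, Ly6a, which encodes Sca-1, stood at 30.4 ± 7.35 TPM, and Cd24a, Prom1, Kit, Aldh1a1 and Lgr5 had no count.

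Markers of other cell types were mostly at or near 0. Of 15 leukocyte markers 2 were expressed, Cd68 (15.9 ± 2.29 TPM), a lysosomal protein gene, and Lyz2 (3.44 ± 1.07 TPM, 67.2% of words unique). Their summed level was 10.1, 7.94 and 9.02 CPM over the cultures. The defining Ptprc (CD45) and Csf1r had 1 count each, and Cd3e, Adgre1 and Tyrobp had none. Of 10 endothelial markers Pecam1 (1.67 ± 0.0807 TPM) and Vwf (0.422 ± 0.0781 TPM) passed, with Kdr and Tek at 1 and 2 counts and a sum of 4.01, 4.48 and 5.31 CPM. None of 8 adipocyte markers was expressed, and Adipoq and Plin1 had no count. Of 12 neuron and glia markers 3 were expressed, among them Tubb3 (65.6 ± 1.90 TPM), a tubulin also made by dividing tumour cells, and Mbp (5.31 ± 1.07 TPM, or 35.1 TPM on its principal transcript), with Rbfox3, Snap25 and Gfap at 0. The fibroblast markers Pdgfra, Pdgfrb, Col1a1 and Col3a1 were expressed, and Dcn and Lum, the small proteoglycans that define fibroblasts, had no count.

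The cytoskeleton list was nearly complete, with 33 of 36 members expressed and 1.96 ± 0.0822% of counts. After Vim and Actb came Tmsb10 (1692 ± 100.3 TPM), a thymosin that binds actin monomers, Tubb5 (1474 ± 53.5 TPM), Cfl1 (1264 ± 20.7 TPM), which severs actin filaments, and Flna (1059 ± 4.02 TPM), which crosslinks them. Actg1, the other body-wide actin, reached 1263 ± 17.3 TPM, level with Cfl1. Nes, the intermediate filament protein nestin of progenitor cells, stood at 122 ± 2.12 TPM. Caveolae, the membrane pits of mechanically loaded cells, had their core set: Cavin1 (435 ± 9.73 TPM), Cav1 (289 ± 9.59 TPM) and Cav2 (213 ± 2.72 TPM), against 0 counts for the muscle form Cav3.

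Of 23 collagen genes, whose chains assemble into trimers, 15 were expressed. Collagen VI was complete, with Col6a1 at 729.7, 711 and 754 TPM, Col6a2 at 413, 422 and 426 TPM and Col6a3 at 333, 329 and 319 TPM. Collagen IV of the basement membrane had Col4a1 at 287, 278 and 285 TPM and Col4a2 at 94.8, 97.6 and 97.9 TPM, and Col4a3 at 0 counts. Collagen I is normally built from Col1a1 and Col1a2 chains, and here Col1a1 stood at 159.5, 169 and 170.1 TPM while Col1a2 had no count, with 100% of its words unique. Collagen V showed the same pattern, with Col5a1 at 205, 203 and 206 TPM and 4 counts in all for Col5a2. Col18a1 (175 ± 1.73 TPM), whose fragment is endostatin, and Col3a1 (84.1 ± 7.55 TPM) were also among the higher collagens. With the median transcript length Col1a1 would be 948 TPM and Col3a1 261 TPM, so the order of the collagens is not firm.

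Of laminin chains the cells held Lamc1 (204 ± 6.23 TPM), Lamb2 (57.6 ± 3.17 TPM) and Lama5 (55.9 ± 1.22 TPM), chains that can form 1 trimer, and Lamb1, Lama3 and Lamb3 were at 1.42 ± 0.307 TPM, 2 counts and 3 counts. The other basement membrane genes Nid1 (200.5 ± 2.12 TPM) and Hspg2 (170.4 ± 3.14 TPM), nidogen and perlecan, were close to Lamc1. Ecm1 reached 253 ± 5.80 TPM, and the YAP target Ccn1 123 ± 7.01 TPM. Thrombospondin 1, Thbs1, had 2 counts.

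Integrins join cells to this matrix as pairs of an alpha and a beta chain. Of 25 genes 14 were expressed, led by Itga6 (353, 367 and 367 TPM) and Itgb1 (338, 315 and 327 TPM), the laminin receptor pair. Itga5 (106 ± 3.96 TPM), the fibronectin receptor chain, and Itgb5 (91.7 ± 0.910 TPM) followed, and Itgb4, the partner of Itga6 in hemidesmosomes, was low at 14.2 ± 0.754 TPM. Itgb2 (16.2 ± 1.14 TPM) and Itgb7 (41.2 ± 5.57 TPM), beta chains known from leukocytes, were expressed, while their alpha partners Itgal, Itgax, Itga4 and Itgae had 17, 1, 0 and 0 counts. Matrix proteases were led by Ctsb (286 ± 4.59 TPM), Ctsl (282 ± 11.4 TPM) and Mmp14 (279 ± 4.19 TPM), the membrane protease that activates MMP2, beside the inhibitor Timp2 (297 ± 7.73 TPM). Mmp2 itself stood at 17.9 ± 1.80 TPM, Plau (urokinase) at 29.5 ± 2.82 TPM and its receptor Plaur at 87.8 ± 9.03 TPM.

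**Figure D2:**
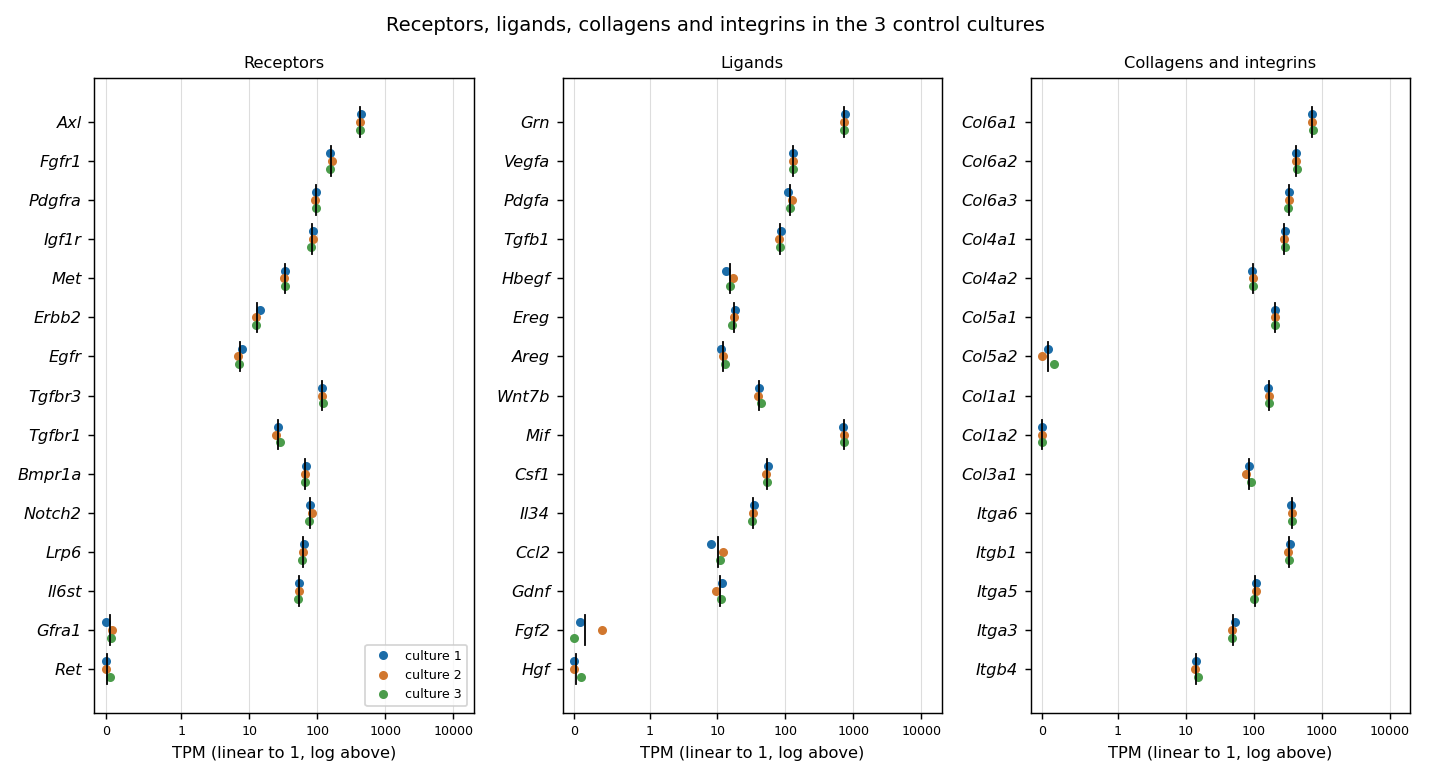
Levels of 45 receptors, ligands, collagens and integrins in the 3 control cultures, in TPM on an axis that is linear to 1 and logarithmic above. Points are cultures and the vertical bar is their mean. Axl, Grn, Mif and Col6a1 stood highest in their panels, and Col1a2 was at 0 in each culture while Col1a1 stood near 166 TPM.

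Receptor tyrosine kinases pass growth factor signals across the membrane. In this list 19 of 45 genes were expressed, 42.2% against the background of 47.2%. Axl, the receptor of GAS6, stood at 437, 430.2 and 421 TPM and was 31.3% of the summed TPM of the list. Its ligand gene Gas6 had 7 counts. Fgfr1 (156, 167 and 154 TPM) came next, with Ryk (128 ± 2.02 TPM), a Wnt co-receptor, Ddr1 (104 ± 4.20 TPM), a collagen receptor, Epha2 (95.6 ± 2.25 TPM) and Pdgfra (95.4 ± 1.90 TPM). Epha2 and Pdgfra did not differ beyond their spread, and Igf1r (85.2 ± 4.27 TPM) followed them. Met (33.3 ± 0.700 TPM), the receptor of HGF, lay near the median expressed gene, and Erbb3 (2.59 ± 0.477 TPM) well below it. Egfr stood at 7.27 ± 0.552 TPM on its longest transcript, but at 42.7 TPM with the median length of its transcripts, so its place is not firm. Fgfr3, Flt1, Kdr, Tek, Kit and the neurotrophin receptors Ntrk2 and Ntrk3 were not expressed.

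The genes that the series was built around were low. Ncam1 stood at 3.33, 5.19 and 3.40 TPM and Gdnf at 11.5, 9.38 and 11.4 TPM, while the co-receptor Gfra1 and the receptor Ret had 2 and 1 counts in the 3 cultures, at exact 95% Poisson upper limits of 0.326 and 0.252 CPM. The kinases known to act under NCAM1, Fyn (64.0 ± 3.75 TPM) and Ptk2 (186 ± 7.33 TPM), were both expressed, and L1cam (31.5 ± 1.81 TPM), a related adhesion molecule, was higher than Ncam1 in each culture.

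Growth factor ligands were led by Grn, progranulin, at 746, 738 and 729 TPM. Vegfa, the main vessel growth factor, stood at 131, 128 and 128 TPM, or 598 TPM on its principal transcript, and Pdgfa at 109, 123 and 115 TPM, beside its receptor Pdgfra. Of EGF receptor ligands Ereg (17.2 ± 0.949 TPM), Hbegf (15.2 ± 1.88 TPM), Areg (12.1 ± 0.975 TPM) and Btc (4.97 ± 1.52 TPM) were expressed at low levels, and Tgfa had no count. Fgf1, Fgf2 and Hgf, ligands of receptors that the cells expressed, had 2, 7 and 1 counts. The list as a whole had 12 of 33 members expressed.

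TGF-beta signalling was better covered, with 25 of 34 genes expressed. The ligand Tgfb1 stood at 85.8, 81.5 and 82.4 TPM, above Tgfb3 (27.7 ± 2.09 TPM) and Tgfb2 (14.2 ± 1.77 TPM). Among receptors the co-receptor Tgfbr3 (118, 116 and 121 TPM) exceeded Tgfbr1 (26.5 ± 1.54 TPM). The BMP receptor Bmpr1a (66.8 ± 1.65 TPM) and the mediators Smad4 (86.8 ± 1.55 TPM), Smad5 (66.7 ± 0.461 TPM) and Smad3 (53.2 ± 1.33 TPM) were present, and the BMP target Id1 reached 84.9 ± 5.72 TPM. Wnt and Notch genes were near the background, with 17 of 37 expressed. Ctnnb1, beta-catenin, led at 444 ± 10.5 TPM, Notch2 (79.6 ± 3.47 TPM) exceeded Notch1 (23.4 ± 1.46 TPM) in each culture, and Wnt7b (41.4 ± 2.63 TPM) and Wnt10b (15.1 ± 2.08 TPM) were the highest ligands.

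Axon guidance genes, which tumour cells can use in contact with nerves, were expressed in 20 of 40 cases. The semaphorin receptors Plxnb2 (209.9 ± 2.90 TPM) and Nrp2 (145 ± 1.51 TPM) and the netrin receptor Unc5b (83.0 ± 0.662 TPM) were highest, and the ligand Ntn1 stood at 74.9 ± 3.73 TPM. The neurotrophin genes Ntf3 and Bdnf had no count. Il6st, the shared receptor chain of the IL-6 family, reached 53.9 ± 1.12 TPM, with Osmr at 19 counts and Lifr at 0.

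Chemokines were sparse. Of 28 genes 3 were expressed, Ccl2 (8.07, 12.0 and 10.8 TPM), which draws monocytes, Ccl25 (9.31, 12.5 and 7.82 TPM, or 20.9 on its principal transcript) and Cx3cl1 (4.92, 5.31 and 6.11 TPM). Cxcl1 and Cxcl5, which draw neutrophils, and Cxcl9, which draws T cells, had no count. Of cytokines Mif (717 ± 16.2 TPM) stood far above the rest, followed by Csf1 (53.3 ± 1.89 TPM) and Il34 (33.2 ± 1.48 TPM), the ligands of the macrophage receptor CSF1R, and Kitl (32.1 ± 1.44 TPM). Il1b and Csf2 had no count, and Csf3 had 1. Tlr4, the receptor of bacterial lipopolysaccharide, was the highest of 3 expressed Toll-like receptors at 18.9 ± 2.24 TPM.

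Genes of antigen presentation by MHC class I were mostly expressed, as 15 of 19, and presentation itself was not measured. B2m, the shared light chain, stood at 1338, 1337 and 1288 TPM, the heavy chain H2-D1 at 656, 699 and 673 TPM and H2-K1 at 77.5, 79.4 and 84.1 TPM. H2-D1 was the higher in each culture, but these genes are near copies of each other (72.3% and 77.5% of words unique), so their ratio is uncertain. The peptide transporters Tap1 (26.3 ± 2.04 TPM) and Tap2 (39.6 ± 1.34 TPM) lay near the median expressed gene. Of 8 class II genes 2 were expressed, H2-DMb1 (19.1 ± 4.69 TPM, 62.4% of words unique) and H2-DMa (5.70 ± 0.949 TPM), which encode the chains of a peptide-loading helper. The antigen-presenting chains H2-Aa, H2-Ab1 and H2-Eb1 had no count and Cd74, the invariant chain, had 8. Cd274, the checkpoint ligand PD-L1, had 10 counts and was not expressed by the rule. Lgals3 (1188 ± 41.2 TPM), Pvr (110.4 ± 2.27 TPM), Nt5e (53.02 ± 1.58 TPM), which makes adenosine, and Cd47 (52.9 ± 0.743 TPM, or 186 TPM on its principal transcript), the signal that keeps macrophages from engulfing a cell, were expressed. Interferon-stimulated genes were low apart from Bst2 (209.8 ± 7.004 TPM), and 10 of 26 were expressed.

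Of 31 glycolytic enzymes and regulators 21 were expressed, and together they took 0.863 ± 0.0394% of counts. Gapdh (2073 ± 36.5 TPM), Eno1 (1983 ± 59.6 TPM), Ldha (1461 ± 45.0 TPM) and Pkm (1175 ± 50.5 TPM) were the 4 highest. Gapdh would be 4221 TPM on its principal transcript of 1420 bases, against 3289 bases for the longest. Lactate dehydrogenase assembles from A and B subunits, and here Ldha stood at 1463, 1415 and 1505 TPM while Ldhb had 1 count in all, with 58.6% of its words unique. Eno3, the muscle enolase, was expressed at 149.7 ± 1.62 TPM, above the neuronal Eno2 (5.52 ± 0.915 TPM). Hexokinase was Hk1 (104 ± 3.06 TPM) and Hk2 (65.2 ± 1.61 TPM), and phosphofructokinase was spread over Pfkm (92.1 ± 5.77 TPM), Pfkl (69.9 ± 1.75 TPM) and Pfkp (47.8 ± 2.02 TPM, or 87.9 TPM on its principal transcript).

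Of glucose transporters Slc2a1 (GLUT1) was highest, at 146, 149.9 and 155 TPM. Slc2a3 (GLUT3) stood at 13.1, 13.5 and 13.7 TPM, and Slc2a2, the transporter of liver, had no count. The lactate transporters Slc16a1 (MCT1) and Slc16a3 (MCT4) were both expressed, at 166, 173 and 172 TPM for Slc16a1 and 80.3, 81.5 and 88.5 TPM for Slc16a3, with their chaperone Bsg at 174 ± 7.69 TPM. For gluconeogenesis the mitochondrial Pck2 reached 139, 143 and 146 TPM, and the cytosolic Pck1, the fructose bisphosphatase Fbp1 and the liver phosphatase G6pc had no count. All 8 pentose phosphate enzymes were expressed, led by G6pdx (468 ± 19.8 TPM) and Tkt (451 ± 8.24 TPM). Of 27 TCA cycle genes 26 were expressed, at a median of 123 TPM, with Mdh2 (471 ± 7.81 TPM) and Cs (309.6 ± 2.51 TPM) highest.

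**Figure D3:**
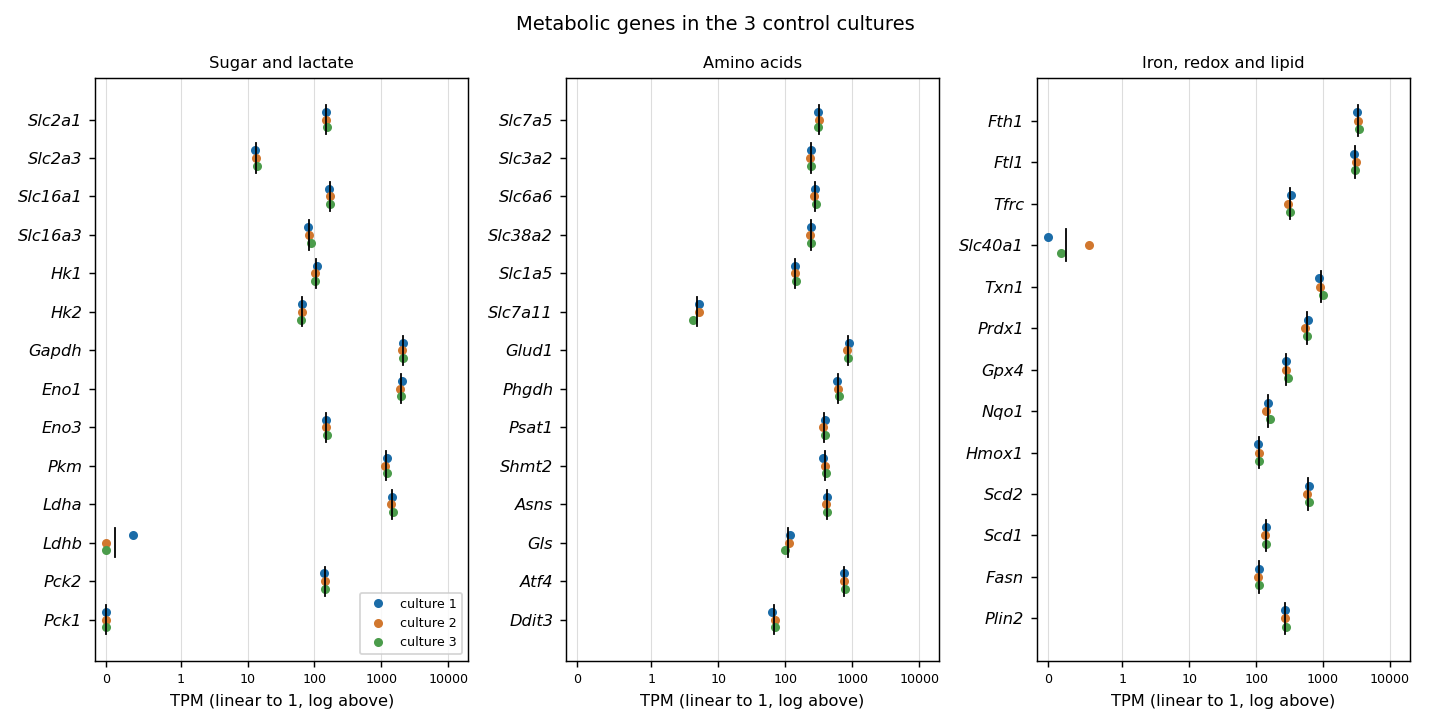
Levels of 41 metabolic genes in the 3 control cultures, in TPM on an axis that is linear to 1 and logarithmic above. Points are cultures and the vertical bar is their mean. Gapdh, Eno1, Ldha, Fth1 and Ftl1 exceeded 1000 TPM in all cultures, while Pck1 was at 0 and Ldhb had 1 count.

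Of 28 amino acid transporters 18 were expressed. Slc7a5 (LAT1) stood at 313, 318 and 313 TPM and its partner Slc3a2 at 239, 237 and 239 TPM. Slc6a6, the taurine transporter, reached 281 ± 10.9 TPM, Slc38a2 (SNAT2) 239.9 ± 5.52 TPM and the glutamine transporter Slc1a5 142 ± 4.47 TPM. The cystine transporter Slc7a11, a further partner of Slc3a2, was low at 5.15, 5.17 and 4.17 TPM. Of 27 enzymes of serine, one-carbon and amino acid synthesis 24 were expressed, at a median of 101 TPM. Glud1, glutamate dehydrogenase, was highest at 864 ± 21.1 TPM. The serine pathway followed with Phgdh (612 ± 23.5 TPM), Psat1 (380.5 ± 11.4 TPM) and Psph (56.3 ± 3.21 TPM), and Shmt2 (392 ± 22.1 TPM) and Mthfd2 (183 ± 5.05 TPM) carry serine carbon into the mitochondrial folate cycle. Asns, asparagine synthetase, stood at 421 ± 9.96 TPM, and Ass1 (258 ± 9.19 TPM) exceeded Asl (17.4 ± 1.33 TPM), the next enzyme of arginine synthesis.

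The factors and targets of the integrated stress response were present, with 20 of 22 expressed. Atf4 itself stood at 744, 745 and 773 TPM, rank 143. Its targets Trib3 (176 ± 9.71 TPM), Atf5 (109 ± 3.40 TPM), Ddit4 (71.3 ± 6.31 TPM), Ddit3 (CHOP, 68.2 ± 3.74 TPM) and Sesn2 (57.5 ± 2.91 TPM) all exceeded the median expressed gene, and Chac1 (26.4 ± 2.02 TPM) did not. Of the 4 kinases that start the response, Eif2ak1 (30.5 ± 2.52 TPM), Eif2ak3 (30.2 ± 1.46 TPM), Eif2ak2 (29.6 ± 1.27 TPM) and Eif2ak4 (23.2 ± 1.55 TPM) lay close together, and the first 3 of them did not differ beyond their spread. All 22 genes of the endoplasmic reticulum chaperone list were expressed, with Canx (747 ± 12.9 TPM), P4hb (647 ± 11.7 TPM), Calr (625 ± 14.4 TPM) and Hspa5 (539 ± 28.0 TPM) at the top. No culture in full glucose is at hand, so whether these levels are raised was not tested.

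Of 22 hypoxia-inducible genes 21 were expressed, with Hif1a at 255, 233 and 246 TPM, and Epas1 (HIF-2 alpha) was the exception at 5 counts. Ndrg1 (141 ± 3.42 TPM), Egln3 (125 ± 1.94 TPM) and Adm (116 ± 4.64 TPM) were among the higher targets, and Car9 was low at 2.40 ± 0.199 TPM. All 31 antioxidant genes were expressed. The ferritin chains Fth1 (3239, 3344 and 3448 TPM) and Ftl1 (2945, 3116 and 3013 TPM) led them, although 5.12% of Ftl1 words are unique and its count is uncertain. Tfrc, which brings iron in, stood at 319 ± 13.8 TPM, while Slc40a1 (ferroportin), which lets it out, had 8 counts. Txn1 (924 ± 54.1 TPM), Prdx1 (572 ± 26.8 TPM) and Gpx4 (284 ± 10.5 TPM), which reduce peroxides and protein thiols, were high.

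Lipid synthesis was led by the desaturase Scd2 at 611, 574 and 611 TPM, above Scd1 at 140.2, 135 and 139 TPM. Plin2, the coat of lipid droplets, reached 271 ± 4.45 TPM, Fasn 109 ± 1.14 TPM and the sterol regulator Srebf2 147 ± 1.55 TPM. The sterol enzymes Hmgcs1 (80.3 ± 0.713 TPM) and Sqle (63.0 ± 2.56 TPM) both exceeded the median expressed gene.

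Genes of dividing cells were expressed throughout in the low-glucose medium. All 26 DNA replication genes and all 25 mitosis genes were expressed, at medians of 99.4 and 73.2 TPM. Pcna (291 ± 13.4 TPM), the polymerase clamp, and Mcm7 (239 ± 5.91 TPM), of the replicative helicase, led the first list, and Top2a (369 ± 12.8 TPM), which untangles DNA in mitosis, the second. Of cyclins Ccnd2 (255, 251 and 256 TPM) and Ccnd1 (211, 214 and 212 TPM) were higher than Ccnd3 (33.6 ± 1.96 TPM, or 54.0 TPM on its principal transcript), and Cdk4 (354 ± 12.1 TPM) exceeded Cdk6 (46.8 ± 3.08 TPM).

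The inhibitors that brake these kinases were unevenly expressed. Cdkn1a (p21, 82.4 ± 3.62 TPM) and Cdkn1b (p27, 81.0 ± 2.99 TPM) did not differ beyond their spread. Cdkn2a, which encodes p16 and ARF, and Cdkn2b, p15, had no count in any culture, with 100% and 100% of their words unique. Trp53 stood at 134, 138 and 139 TPM, or 223 TPM on its principal transcript, and its targets Mdm2 (50.6 ± 1.996 TPM), Bax (108 ± 6.82 TPM) and Ccng1 (45.4 ± 2.49 TPM) were expressed. All 20 DNA repair and susceptibility genes were expressed, among them Brca1 (40.0 ± 2.46 TPM) and Brca2 (15.1 ± 1.62 TPM).

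Of oncogenes Myc was highest, at 629.8, 682 and 679 TPM and rank 173, or 999 TPM on its principal transcript. The Hippo effectors Wwtr1 (TAZ, 106 ± 6.03 TPM) and Yap1 (103 ± 3.86 TPM) did not differ beyond their spread, with 4 of 4 Tead partners expressed and Tead2 (96.5 ± 4.46 TPM) highest. Nras stood at 91.4 ± 1.95 TPM, and the suppressors Nf1 (52.3 ± 2.56 TPM) and Rb1 (30.8 ± 2.98 TPM) were both present. AP-1 was carried by Jund (141 ± 5.76 TPM), Fosl1 (132 ± 9.19 TPM) and Jun (97.4 ± 1.71 TPM), while the quickly induced Fos and Egr1 had 18 and 26 counts, at 1.09 ± 0.659 TPM and 0.773 ± 0.410 TPM. Dusp4 (217 ± 11.4 TPM) and Dusp6 (88.0 ± 4.52 TPM), phosphatases that ERK signalling raises, were expressed. In the BCL2 family the guardian Mcl1 (245, 229.8 and 238 TPM) and Bcl2l1 (111, 116 and 121 TPM) exceeded Bcl2 (3.82, 4.59 and 3.66 TPM) in each culture, and Bcl2l11 (BIM, 106 ± 3.81 TPM), Bax and Bak1 (118 ± 9.65 TPM), which promote cell death, were near the level of Bcl2l1.

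Of 26 oncofetal and cancer-testis genes 8 were expressed, a share of 30.8% against the background of 47.2%, and 14 had no count. Hmga1 (579.9 ± 15.5 TPM), Hmga2 (58.6 ± 5.10 TPM) and Igf2bp2 (96.8 ± 3.24 TPM), chromatin and RNA-binding proteins of embryonic tissue, passed the threshold, as did Afp (26.0, 25.9 and 26.8 TPM), alpha-fetoprotein. The imprinted genes H19, Meg3 and Dlk1 had no count. Xist, the RNA of the inactive X chromosome, had 2 counts, and the Y-linked Ddx3y, Kdm5d, Uty and Eif2s3y had none. Of 39 Hox genes, which set position along the body axis, 13 were expressed, with Hoxd9 (46.9, 55.1 and 58.6 TPM), Hoxd8 (34.5, 34.5 and 34.0 TPM, or 143 on its principal transcript) and Hoxc10 (30.97, 32.1 and 34.1 TPM) highest.

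**Figure D4:**
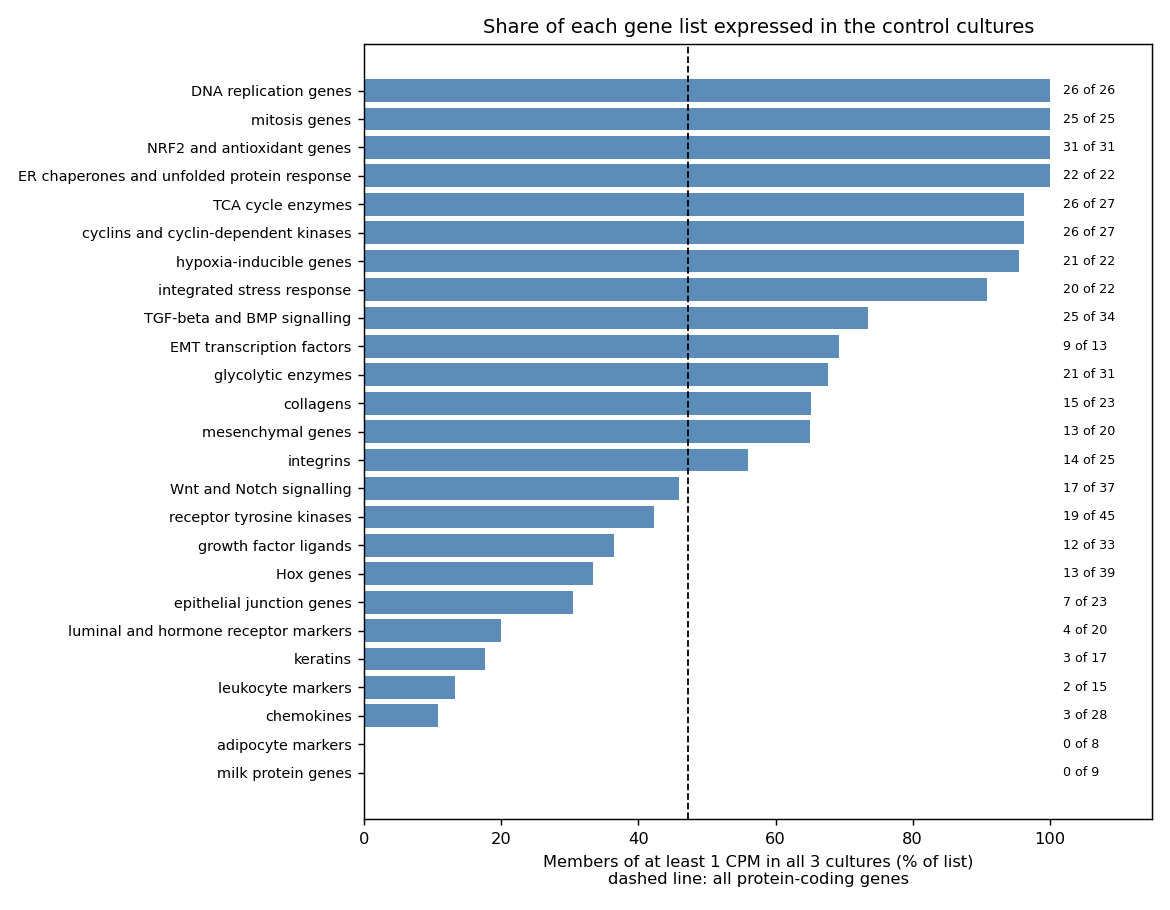
Share of the members of 25 gene lists that were expressed, in percent of each list, with the counts at the right. The dashed line marks 47.2%, the expressed share of all protein-coding genes. Replication, mitosis, antioxidant and reticulum chaperone lists were complete, and milk protein and adipocyte lists had 0 members expressed.

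Levels of most genes differed little between the 3 cultures. Among 7262 genes of at least 20 CPM on average the median of SD over mean was 5.51%, and 86.5% of genes were under 10%. The counting error expected from each gene's mean count had a median of 4.62%. An SD taken from 3 values falls below the true SD more often than above it. The medians of 5.51% and 4.62% are therefore not like measures. The biological coefficient of variation estimated by edgeR was 0.0405. Counts of each pair of cultures differed by more than sampling noise, with a median squared deviation per gene of 0.722 to 1.01 where sampling gives 0.455. This does not show whether the spread is biological or technical. The mean of that deviation was 1.88 between the first and second cultures, but 13.5 and 13.3 between each of them and the third. With the unannotated feature and Lars2 dropped from the mean it was 1.82 between the first and second cultures. Between each of them and the third it was 2.75 and 3.26, a comparison added after the data were seen. The totals that scale the cultures still held both, and their part in the remaining deviation was not tested. Of 29 genes with an SD over 20% of the mean, the third culture lay farthest from the median in 17. The 10 genes of widest spread were led by the nuclear RNA Malat1, at 1577, 2419.9 and 1062 CPM, with an SD over mean of 40.6%. Neat1, the RNA of paraspeckles, stood at 325, 478 and 331 CPM, with the second culture highest for both. Lars2 (36.4%), Mir6236 (35.2%) and mt-Rnr1 (22.7%), the small mitochondrial ribosomal RNA, were lowest in the third culture. The other 5 were Atp5o, Bckdhb, Pafah1b3, Rnf34 and Mex3d, all under 50 CPM, where counting alone gives 6.23% to 8.05%. The 10 genes of narrowest spread, among them Pip4k2c (60.8, 60.8 and 60.8 CPM), Srsf11 (149, 149 and 149 CPM) and Usp40 (50.1, 50.1 and 50.2 CPM), lay below the spread that counting error alone gives. They were picked as the smallest of 7262 values from 3 cultures each. Such low values follow from that choice and do not mark these genes as steady.

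**Figure D5:**
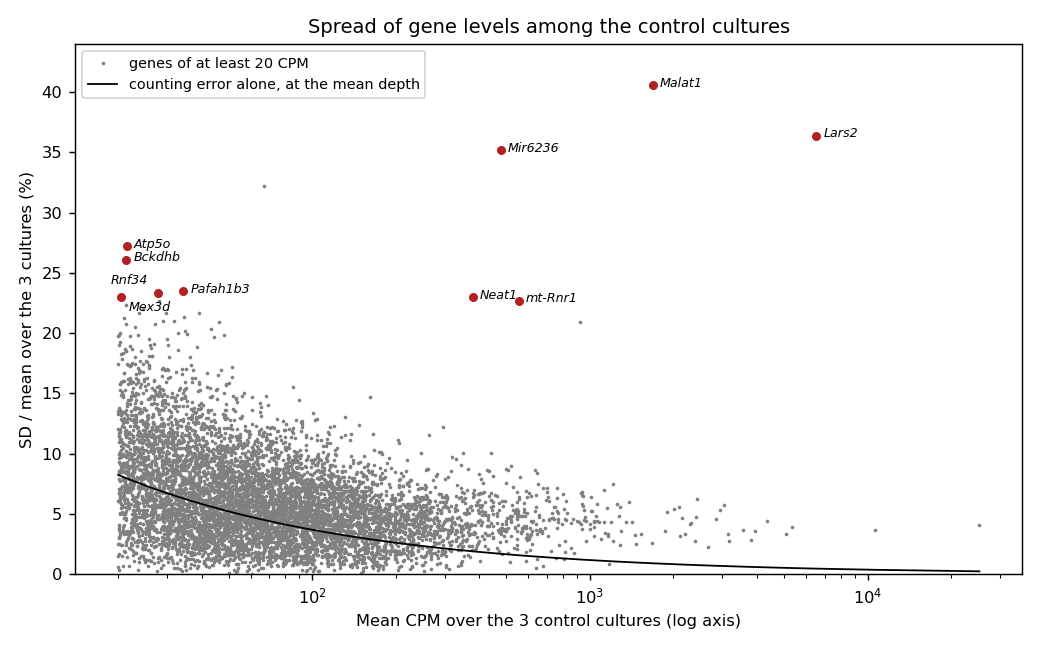
SD over mean of each gene across the 3 control cultures, in percent, against its mean CPM on a log axis, for 7262 genes of at least 20 CPM. The line is counting error alone at the mean depth, and the 10 widest named genes are in red, from 22.7% for mt-Rnr1 to 40.6% for Malat1.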

How the data were processed

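RNA of 12 cultures of EO771-tdT-LM2 cells was sequenced by an Illumina protocol, per the labels, and the 3 control cultures were used. The table the authors deposited holds raw counts per gene, not scaled, as whole numbers for 55414 gene IDs. Per the submitters' processing notes, kallisto 0.46.2, FastQC and MultiQC were used, with the builds GRCm39 and mm10. Which build the counts rest on, whether kallisto's estimated counts were rounded, the handling of reads that match several genes and the use of strand are not given in the sources used here. Near-identical, overlapping and antisense genes are therefore uncertain.

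Symbols and transcript lengths come from GENCODE M21, and lengths were found for 52081 IDs. The other 3333 held 7.62% of the control counts, nearly all of them on 1 feature with no annotation, which counts in CPM totals but not in TPM. The remaining 3280 IDs with no annotation summed to 540.2 CPM. CPM used a culture's whole total. TPM used the longest annotated transcript. The share of unique sequence is the percentage of 31-base words of that transcript found in no other gene's transcripts on either strand. Where a symbol had several IDs, that with most counts was used. Intervals are exact Poisson limits (95%) on pooled counts.

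The biological coefficient of variation is edgeR's common dispersion (4.0.16, R 4.3.3) after filterByExpr, tested on simulated data. TMM and DESeq2 1.42.0 size factors were alternative scalings. Everything else was computed with Python 3.11.15, pandas 2.3.3 and scipy 1.17.1. The description covers 1 group, so no test between groups was made and no p-value is given.

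There were 64 lists of symbols and 16 lists by name pattern, which were added after values had been seen. Members and lists were chosen with earlier results of these data known. The genes named are, by rule, the 30 highest per length, up to 6 of the highest members of each list with the defining members under 3 counts, the 10 widest and 10 narrowest of at least 20 CPM, and Ncam1, Gdnf, Gfra1 and Ret. Others, such as members named for an isoform or a partner chain, were chosen after their values were seen. Some genes that the rule names are not reported here.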

Additional observations from a re-analysis of the deposited data

How the results depend on the processing

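The number of expressed genes, 11013, stayed within 1.5 times under every setting run: 11709 at 0.5 CPM, 9446 at 5 CPM, 10745 with at least 10 counts in each culture, 11013 with TMM and with DESeq2 scaling, 11099 with the unannotated feature and Lars2 left out of the total, and 11093 to 11179 without single control cultures. Leaving out that feature and Lars2 raised the mitochondrially encoded share to 4.61%, against 4.22% with them, and the ribosomal protein share to 6.72%, against 6.16%, both by more than 1 SD. It also raised the number of genes that hold 50% of counts to 948, against 745, and without single cultures that number was 710 to 767. Without single cultures the mitochondrially encoded share was 4.14% to 4.28%, the ribosomal protein share 5.995% to 6.26% and the biological coefficient of variation 0.0349 to 0.0438. That coefficient was 0.0410 with no filter and 0.0403 for genes of at least 5 CPM. The choice of transcript length mattered more. Of the 30 highest genes per length, 20 stayed with the median transcript length, 20 with CPM and no length, and 25 with the principal transcript, a setting added after the data were seen, against 30 without any single culture. List medians moved by over 1.5 times in 28 of 80 lists with the median transcript length, in 30 with no length and in 0 with the principal transcript, so the order of genes that lie close in TPM is not firm. The CPM of 72 leading genes moved by under 1 SD with either scaling and without any single culture, and that of the 71 other than Lars2 rose 1.09 to 1.10 times with the unannotated feature and Lars2 left out. No paired analysis was possible because only 1 group was described and no result comes from a test. With 3 counts as the floor, genes under 0.371 to 0.482 CPM were not resolved in a culture.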

Other observations

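Tetraspanins, which organise membrane proteins and line the surface of extracellular vesicles, were expressed in 13 of 27 cases. Cd9 stood at 1302, 1224 and 1325 TPM and Cd63 at 312, 323 and 339.8 TPM, or 746 TPM on its principal transcript, while Cd81, which is usually found with them on vesicles, had 6 counts over the 3 cultures with 99.8% of its words unique. S100 and annexin genes, which bind calcium and membranes, were expressed in 15 of 24 cases. S100a6 (1873 ± 119.6 TPM) and Anxa1 (1048 ± 38.5 TPM) were highest, and S100a10 (863 ± 44.4 TPM) stood near its binding partner Anxa2 (747 ± 27.8 TPM). S100a4, often taken as a mesenchymal marker, was low at 8.22 ± 0.173 TPM, though 41.9% of its words are unique. Lysosomal genes were expressed in 21 of 22 cases, with Psap (975 ± 12.1 TPM), the precursor of saposins, the highest after the ferritins.

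Around the uncounted Cdkn2a, 7 protein-coding genes in a row in RefSeq order had no count in any culture: Cdkn2a, Cdkn2b, Dmrta1, Zfp352, Elavl2, Izumo3 and Tusc1. The genes on either side were both expressed, Mtap at 134 ± 4.82 CPM and Caap1 at 18.5 ± 1.11 CPM. How many of the 7 are expected in any mammary cell was not tested. On the other side of Mtap the next 7 genes, Ifna7 to Ifne, had no count either, several of them with little unique sequence. What lies behind either run was not tested. The stretch around Cdkn2a was noticed after the values were seen.

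Of transcription factor families, 3 of 19 Sox genes were expressed, with Sox9 followed by Sox7 (8.47 ± 0.951 TPM) and Sox5 (7.98 ± 1.40 TPM), and 2 of 6 Gata genes, both low, with Gata2 at 2.63 ± 0.587 TPM and Gata4 at 1.59 ± 0.878 TPM. Forkhead genes were expressed in 14 of 44 cases. Foxj3 (83.1 ± 0.382 TPM) and Foxk2 (77.1 ± 4.43 TPM) were highest, the mitotic factor Foxm1 stood at 55.8 ± 1.55 TPM, and Foxa1, a luminal regulator, had 2 counts. Of 7 Stat genes Stat6 (100.4 ± 3.44 TPM) and Stat3 (81.6 ± 3.96 TPM) were highest. Of 67 replication-dependent histone genes, whose messages lack a poly(A) tail, 4 were expressed, led by Hist1h1c at 28.3 ± 4.25 TPM, in cultures where all 26 DNA replication genes were. Of the 63 that were not, 40 have under 50% of their words unique, so their counts are not read as low levels. How the libraries selected RNA is not given in the sources used here. Of noncoding RNAs the snoRNA hosts Gas5 (283 ± 8.94 TPM), Snhg5 (209 ± 12.4 TPM) and Snhg6 (141 ± 16.9 TPM) and the Myc neighbour Pvt1 (76.3 ± 4.50 TPM) were expressed.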
